A study of Mus musculus with 9 samples.

Results

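Trophoblast is the outer lineage of the mouse embryo, which builds the fetal part of the placenta, and 10 of its transcription factors are described here: Cdx2, Gata2, Gata3, Hand1, Esx1, Eomes, Elf5, Tfap2a, Tfap2c and Tead4. They were chosen by gene symbol and are 10 of the 40213 gene symbols in the count tables. In the embryo TEAD4 with its cofactor YAP switches on Cdx2 and Gata3 in outer cells, CDX2 and EOMES maintain the trophoblast stem state, and HAND1 drives formation of giant cells. OCT4, encoded by Pou5f1, represses this programme in embryonic stem (ES) cells, and ES cells that lose OCT4 are known to turn towards trophoblast.

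The series holds 9 total RNA libraries of mouse ES cells cultured with LIF, a cytokine that maintains self-renewal. Of these, 3 came from a stable line that carries EWS-OCT4, in which OCT4 is joined to EWS, a protein that binds RNA (EWS-OCT4 cells), and 3 from a stable line with unfused OCT4 (OCT4 cells); the labels call both Niwa lines. Both were given doxycycline at 1 µg/ml to reduce their own OCT4. The other 3 came from J1, a widely used ES cell line that served as control, and the labels do not say whether it received doxycycline. The 3 libraries of a group carry the same line name, and separate cultures or clones are not stated, so p-values measure only library-to-library spread, possibly technical. Any comparison with J1 changes host line and construct at once, and these cannot be told apart.

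Library totals lay between 21149358 and 24786305 counts. The 13 mitochondrial genes took 16.3 to 17.1% of counts in EWS-OCT4, 10.1 to 12.5% in OCT4 and 12.5 to 15.7% in J1 libraries, and the predicted gene Gm26917 took 1.64 to 1.84% in EWS-OCT4, 3.71 to 5.81% in OCT4 (highest in replicate 2) and 0.841 to 1.12% in J1 libraries. Leaving these genes out changed no call of the factors. Values below are CPM, counts scaled to library size, with sizes corrected by edgeR's TMM method, with SD over n = 3 libraries. Pou5f1 stood at 26.8 ± 2.12 CPM in EWS-OCT4 cells, 165 ± 2.61 CPM in OCT4 cells and 569 ± 61.8 CPM in J1, and whether reads of the introduced sequences count towards it is not given in the sources used here. All 5 ES cell markers checked (Pou5f1, Nanog, Sox2, Esrrb and Zfp42) reached at least 1 CPM in every group, and their summed level was 2243 to 2339 CPM in the EWS-OCT4, 1973 to 2031 CPM in the OCT4 and 3250 to 3648 CPM in the J1 libraries. That sum was highest in J1 without overlap, with Zfp42 at 758 ± 27.4 CPM in EWS-OCT4 cells, 429 ± 19.2 in OCT4 cells and 1425 ± 114 in J1. Nanog went the other way, at 481 ± 5.26 CPM in EWS-OCT4 cells, 509 ± 18.5 in OCT4 cells and 261 ± 13.8 in J1. The other markers of the 5 had their highest mean in J1. The part of the sum in the factors' values was not tested. All 10 trophoblast factors passed the low-count filter, which kept 16562 genes, but Cdx2 and Gata3 had under 10 counts in every J1 library and passed only through the stable lines. The regions below are the 250 bases before the annotated start of Cdx2, Gata3 and Esx1, chosen after their motif matches were seen: Cdx2 as the window with a POU octamer, Gata3 as the one with the most matches to the AP-2 word, and Esx1, which moved in opposite directions against J1, as one with no match.

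The sequences are from RefSeq on build GRCm38.p6, minus strand for all, and are read 5′ to 3′; the counts were made on GRCm39, and no coordinate was carried between the builds. Capitals mark matches to 5 motifs searched on both strands: the POU octamer ATGCAAAT, GGAATG for TEAD factors, AGATAA for GATA factors, TTTATG for CDX factors and GCCNNNGGC for AP-2 factors.
Cdx2, chr5:147307250-147307499: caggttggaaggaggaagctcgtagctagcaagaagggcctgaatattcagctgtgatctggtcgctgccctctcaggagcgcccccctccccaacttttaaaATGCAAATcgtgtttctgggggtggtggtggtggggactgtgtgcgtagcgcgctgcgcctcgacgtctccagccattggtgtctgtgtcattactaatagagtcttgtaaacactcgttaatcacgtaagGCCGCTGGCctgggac
Gata3, chr2:9878601-9878850: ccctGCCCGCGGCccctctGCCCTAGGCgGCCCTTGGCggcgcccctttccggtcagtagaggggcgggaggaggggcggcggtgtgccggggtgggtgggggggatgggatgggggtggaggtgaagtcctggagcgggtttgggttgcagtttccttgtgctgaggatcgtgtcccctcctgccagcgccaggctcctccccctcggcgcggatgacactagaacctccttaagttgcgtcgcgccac
Esx1, chrX:137120327-137120576: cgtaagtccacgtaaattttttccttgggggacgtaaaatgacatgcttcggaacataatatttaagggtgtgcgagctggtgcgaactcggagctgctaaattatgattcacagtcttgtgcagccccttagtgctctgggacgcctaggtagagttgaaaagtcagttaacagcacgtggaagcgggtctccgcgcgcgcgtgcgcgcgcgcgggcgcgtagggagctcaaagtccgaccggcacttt
The octamer, the DNA word bound by OCT4 and related POU factors, lies at bases -147 to -140 of the Cdx2 window. It was in 1.6% of all 32851 windows of this length, and of the 10 windows found for Cdx2, Gata2, Gata3, Esx1, Eomes, Elf5 and Tfap2a, only that of Cdx2 held it. Gata3 held 3 matches to the AP-2 word, which 13.7% of all windows contain, and Cdx2 held 1, at bases -16 to -8. The Esx1 window held none of the 5 words. A match is a run of letters, and binding was not measured.

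The factors followed several patterns. Cdx2, Gata2 and Gata3 were highest in OCT4 cells, lower in EWS-OCT4 cells and lowest in J1. Hand1, Eomes and Tfap2c were high in OCT4 cells, with the EWS-OCT4 line near J1. Esx1 was highest in OCT4 cells and lowest in EWS-OCT4 cells, Tead4 was high in both stable lines, Tfap2a had no call, and Elf5 was near the limit of detection. In bulk RNA, a change in the number of expressing cells and a change in RNA per cell cannot be told apart.

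**Figure D1:**
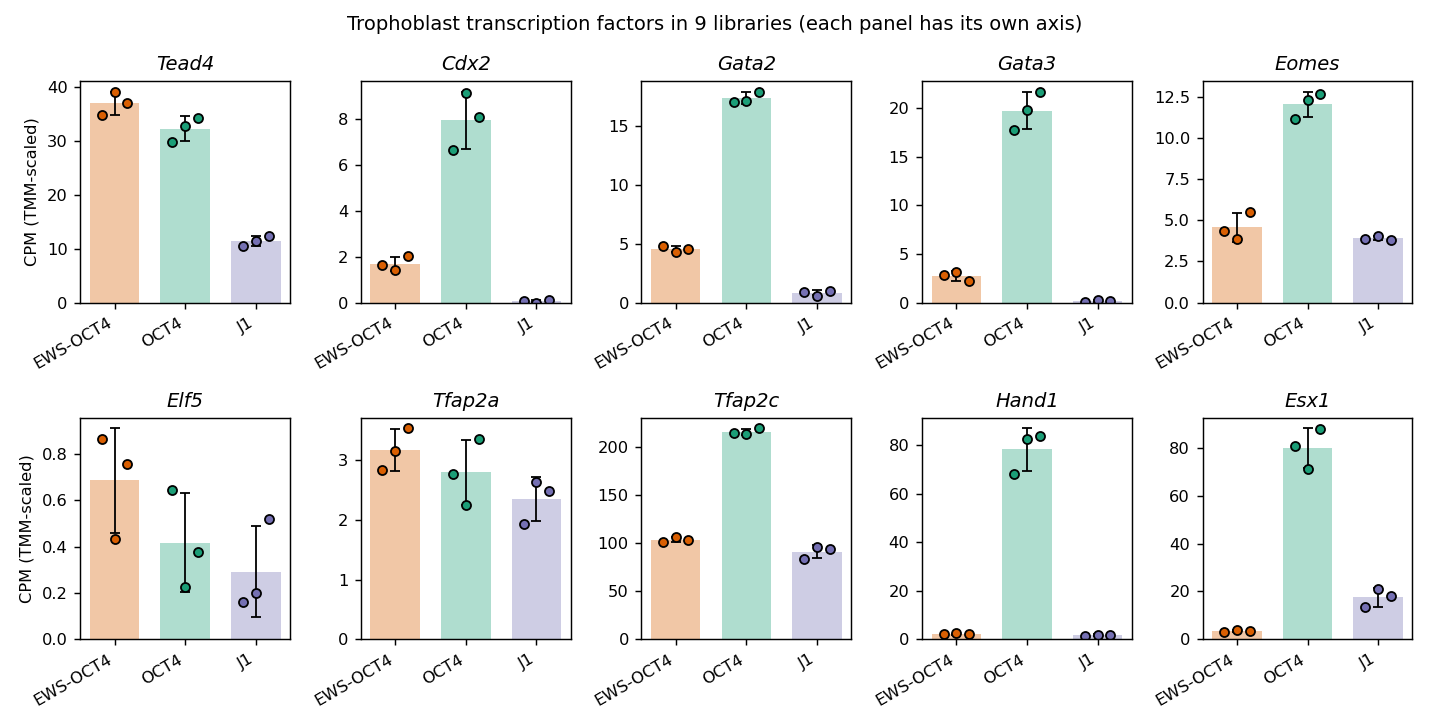
CPM of the 10 factors in each library; points are libraries, bars are means and whiskers are SD (n = 3), and each panel has its own axis from 0. Hand1 stood between 68.2 and 83.9 CPM in the OCT4 libraries and between 1.49 and 2.42 CPM in the other 6, whereas Tead4 was high in both stable lines.

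Setting EWS-OCT4 cells against OCT4 cells compares fused with unfused OCT4 at 1 doxycycline dose. Each construct is represented by 1 named line, so the fusion, the line or clone and the difference in Pou5f1 counts given above cannot be told apart. Of the 10 factors, 7 were lower in EWS-OCT4 cells (Cdx2, Gata2, Gata3, Hand1, Esx1, Eomes and Tfap2c), 1 was higher (Tead4) and 2 were not called (Elf5 and Tfap2a), with edgeR's quasi-likelihood test and adjusted p under 0.05. Among all tested genes 34.6% were lower and 31.9% higher, or 66.5% called in either direction. The median log2 fold change of the 10 was -1.67, beside -0.04 over all 16562 genes. The number of lower factors was 7 in each of the 19 alternative analyses.

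Comparison of the stable lines with J1 asks how far each departs from an unmodified ES line. Of the factors, EWS-OCT4 cells had 6 of 10 higher than J1 (Cdx2, Gata2, Gata3, Elf5, Tfap2c and Tead4), 1 lower (Esx1) and 3 not called, where 30.3% of all genes were higher and 31.6% lower (61.9% called). In the OCT4 line 8 of the 10 were higher than in J1, 0 were lower and 2 were not called, where 34.3% of all genes were higher and 32.7% lower (67% called). The median log2 fold change of the 10 was 0.85 for the EWS-OCT4 line and 1.91 for the OCT4 line against J1, with medians over all genes of 0.0026 and 0.0062. Because Cdx2 and Gata3 passed the filter only through the stable lines, they had to differ from J1. Over the other 8 factors EWS-OCT4 cells had 4 higher, 1 lower and 3 not called against J1 (median 0.36), and OCT4 cells had 6 higher, 0 lower and 2 not called (median 1.56). The 4 include Elf5, which did not pass the filter with only the OCT4 and J1 libraries, so the EWS-OCT4 libraries helped it to enter. The 2 comparisons share the J1 libraries and are given side by side. All 10 fold changes of OCT4 cells against J1 were above 0, so the count of lower factors was 0 at unadjusted p under 0.05 as well, and it was 0 in all 19 alternative analyses, DESeq2 and limma-voom included.

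**Figure D2:**
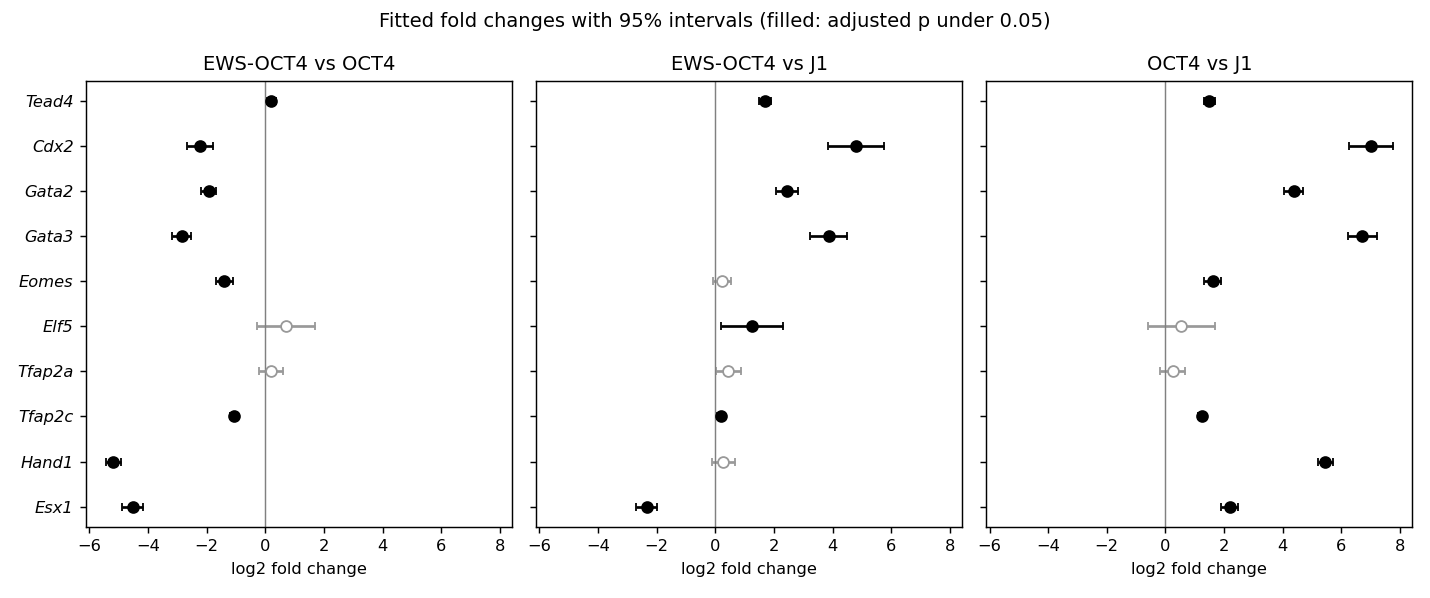
Fitted log2 fold changes of the 10 factors in the 3 comparisons with 95% intervals; filled points have adjusted p under 0.05 in edgeR's quasi-likelihood test. Hand1 and Esx1 lie farthest to the left for EWS-OCT4 vs OCT4, at -5.19 and -4.53, and Cdx2 and Gata3 farthest to the right for OCT4 vs J1.

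Tead4, the TEAD family partner of YAP that acts upstream of Cdx2 in the mouse trophectoderm, was higher in both stable lines than in J1. It had 34.7, 39.1 and 36.9 CPM in the EWS-OCT4 libraries, 29.7, 32.8 and 34.1 in the OCT4 libraries and 10.5, 11.4 and 12.4 in J1. All 6 stable-line libraries stood above all J1 libraries, and the lowest EWS-OCT4 library was just above the highest OCT4 library. Against J1 Tead4 was 3.23-fold higher in EWS-OCT4 cells (log2 1.69, SE 0.0912; edgeR adjusted p = 6.29e-11) and 2.82-fold higher in OCT4 cells (log2 1.49, SE 0.0916; adjusted p = 1.45e-10). Between the stable lines the log2 difference was 0.20 (95% interval 0.02 to 0.37), with edgeR adjusted p = 0.0473. The call did not survive leaving out EWS-OCT4 replicate 2, EWS-OCT4 replicate 3, OCT4 replicate 1 or OCT4 replicate 2 (adjusted p = 0.131, 0.087, 0.198 and 0.0794, in that order), upper-quartile factors (0.107) or TMM factors from autosomes without 8 and 11, an alternative chosen after seeing the data (0.0682), over a range that began at 0.00747.

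Cdx2, the homeobox factor that specifies trophectoderm and in later embryos the gut and posterior axis, had few counts in J1. The counts were 34, 33 and 48 in the EWS-OCT4 libraries, 144, 202 and 193 in the OCT4 libraries and 2, 0 and 2 in J1, and the means were 1.70 ± 0.301 CPM in EWS-OCT4 cells, 7.96 ± 1.25 in OCT4 cells and 0.0581 ± 0.0508 in J1. The groups did not overlap. The EWS-OCT4 line was 4.68-fold below the OCT4 line (log2 -2.23, SE 0.207; edgeR adjusted p = 4.36e-08). With 4 counts over the J1 libraries the ratio to J1 is imprecise: from summed counts it was 30.3 for the EWS-OCT4 line (exact 95% interval 11.5 to 113) and 142 for the OCT4 line (55.1 to 523), intervals that cover counting error only. No p is given against J1 for Cdx2 or Gata3, since both passed the filter only where they were high. The Cdx2 window printed above is the one with the octamer.

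Gata2 and Gata3 encode zinc-finger factors that act together in trophoblast and are also used in blood, Gata2 in stem cells and Gata3 in T cells. Gata2 had 4.76, 4.29 and 4.55 CPM in the EWS-OCT4 libraries, 17.0, 17.1 and 17.9 in the OCT4 libraries and 0.924, 0.598 and 0.987 in J1. Gata3 had 2.84, 3.16 and 2.19 CPM in the EWS-OCT4 libraries, 17.8, 19.8 and 21.7 in the OCT4 libraries and 0.0803, 0.279 and 0.188 in J1, the last from 2, 7 and 4 counts. For both genes the 3 groups were fully separated. In the EWS-OCT4 line Gata2 was 3.83-fold and Gata3 7.25-fold below the OCT4 line (log2 -1.94, SE 0.124, and -2.86, SE 0.155; edgeR adjusted p = 3.41e-10 and 3.75e-11). Against J1, Gata2 was 5.43-fold higher in EWS-OCT4 cells and 20.8-fold higher in OCT4 cells (edgeR adjusted p = 3.22e-09 and 1.5e-13). For Gata3, with 13 counts over the J1 libraries, the summed-count ratio to J1 was 14.9 in EWS-OCT4 cells (exact 95% interval 8.50 to 28.5) and 109 in OCT4 cells (63.4 to 205).

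Eomes, a T-box factor of trophoblast stem cells that later patterns mesoderm and endoderm, had 4.33, 3.85 and 5.52 CPM in the EWS-OCT4 libraries, 11.2, 12.3 and 12.7 in the OCT4 libraries and 3.86, 4.07 and 3.81 in J1. The OCT4 libraries stood above the other 6, and the EWS-OCT4 and J1 libraries overlapped. Eomes was lower in EWS-OCT4 cells, at 4.57 ± 0.858 CPM, than in OCT4 cells, at 12.0 ± 0.768 (log2 -1.40, SE 0.137; edgeR adjusted p = 8.64e-08). It was 3.07-fold higher in OCT4 cells than in J1 (edgeR adjusted p = 1.2e-08). The EWS-OCT4 line differed from J1 by log2 0.22 (95% interval -0.09 to 0.54), which did not pass (edgeR adjusted p = 0.205; range 0.072 to 0.75 over the alternatives).

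Elf5, an ETS factor that reinforces trophoblast fate and whose promoter is known to be methylated in ES cells, was near the limit of detection. Its counts were 18, 10 and 18 in the EWS-OCT4 libraries, 14, 5 and 9 in the OCT4 libraries and 4, 5 and 11 in J1. All 3 groups overlapped. With only the OCT4 and J1 libraries Elf5 did not pass the low-count filter. Its tests of EWS-OCT4 cells thus rest on a filter that the EWS-OCT4 libraries helped it to pass. It passed for the EWS-OCT4 line against J1 (log2 1.25, SE 0.499; edgeR adjusted p = 0.0375), but not without EWS-OCT4 replicate 1 or 3 or J1 replicate 1 or 2 (adjusted p = 0.126, 0.103, 0.132 and 0.117) nor with DESeq2 (0.0611), over a range that began at 0.0116. Without J1 replicate 3 the log2 difference was 1.89. Between the stable lines it was 0.71 (95% interval -0.28 to 1.70; edgeR adjusted p = 0.194), and for the OCT4 line against J1 0.54 (-0.60 to 1.68; edgeR adjusted p = 0.388).

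Tfap2c and Tfap2a encode AP-2 factors; Tfap2c is needed in the trophoblast and in germ cells, and Tfap2a is better known from neural crest and skin. Tfap2c had 101, 106 and 103 CPM in the EWS-OCT4 libraries, 215, 213 and 219 in the OCT4 libraries and 83.7, 96.0 and 93.3 in J1. The OCT4 libraries stood well above the rest, and the EWS-OCT4 libraries just above J1. Tfap2c was 2.08-fold lower in EWS-OCT4 cells than in OCT4 cells (log2 -1.06, SE 0.0672; edgeR adjusted p = 3.03e-10) and 2.37-fold higher in OCT4 cells than in J1 (edgeR adjusted p = 2.93e-11). The EWS-OCT4 line exceeded J1 by log2 0.19 (95% interval 0.04 to 0.33; edgeR adjusted p = 0.0232). That small difference did not pass without EWS-OCT4 replicate 2 or 3 or J1 replicate 1 (adjusted p = 0.0735, 0.0601 and 0.0817), with upper-quartile factors (0.0874) or with TMM factors from autosomes without 8 and 11 (0.118), over a range that began at 0.00661.

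Tfap2a had 2.84, 3.16 and 3.54 CPM in the EWS-OCT4 libraries, 2.77, 2.26 and 3.36 in the OCT4 libraries and 1.93, 2.63 and 2.49 in J1. The EWS-OCT4 libraries lay above those of J1, and the OCT4 libraries overlapped both. No difference passed: the log2 values were 0.18 (95% interval -0.23 to 0.60) for EWS-OCT4 against OCT4, 0.44 (0.02 to 0.86) for EWS-OCT4 against J1 and 0.25 (-0.17 to 0.68) for OCT4 against J1, with edgeR adjusted p = 0.421, 0.0641 and 0.273. The difference between the EWS-OCT4 line and J1 passed without J1 replicate 2 (edgeR adjusted p = 0.0481), over a range up to 0.224. Annotated genes on the opposite strand overlap exon bases of Tfap2a (5.4, 7.8 and 1.5%, by separate genes), Eomes (2.8%) and Gata3 (3.9%). On the same strand 9230102O04Rik overlaps 1.9% of those of Gata3. Whether counting used strand is not given in the sources used here. Symbols found for 2 of the opposite-strand genes had few counts: Gm26688, opposite Tfap2a, at most 2 over any group, and Gm33460, opposite Eomes, 14 over the EWS-OCT4, 23 over the OCT4 and 22 over the J1 libraries.

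Hand1, a basic helix-loop-helix factor that promotes trophoblast giant cells and is also used in the heart, showed the steepest difference of the 10 between the stable lines. It had 2.02, 2.42 and 1.98 CPM in the EWS-OCT4 libraries, 68.2, 82.5 and 83.9 in the OCT4 libraries and 1.49, 1.92 and 1.93 in J1. The OCT4 libraries alone were high. The EWS-OCT4 line was 36.4-fold lower than the OCT4 line (log2 -5.19, SE 0.125; edgeR adjusted p = 2.32e-15), the 47th lowest fold change of the 16562 genes. The OCT4 line was 44.0-fold above J1 (log2 5.46, SE 0.128; edgeR adjusted p = 8.24e-16). The EWS-OCT4 libraries lay just above J1, without overlap, but the log2 difference of 0.28 (95% interval -0.12 to 0.67) did not pass (edgeR adjusted p = 0.21; range 0.156 to 0.537 over the alternatives). Hand1 is on chromosome 11, whose 1262 tested genes had a median log2 fold change of -0.06 for EWS-OCT4 against OCT4, -0.51 for EWS-OCT4 against J1 and -0.47 for OCT4 against J1; the part of that shift in the Hand1 values was not tested.

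Esx1, an X-linked homeobox gene of the placental labyrinth, was the factor that moved in opposite directions in the stable lines relative to J1. It had 2.93, 3.72 and 3.67 CPM in the EWS-OCT4 libraries, 80.7, 71.3 and 87.9 in the OCT4 libraries and 13.5, 21.1 and 17.9 in J1. The groups did not overlap, and J1 lay between the stable lines. Esx1 was 23.1-fold lower in EWS-OCT4 cells than in OCT4 cells (log2 -4.53, SE 0.160; edgeR adjusted p = 5.07e-12). Against J1 it was 5.06-fold lower in EWS-OCT4 cells (log2 -2.34, SE 0.169; adjusted p = 2.18e-08) and 4.57-fold higher in OCT4 cells (log2 2.19, SE 0.130; adjusted p = 1.28e-09), by the same edgeR test. The 567 tested X-linked genes had a median log2 fold change of -0.51 for EWS-OCT4 against OCT4, 0.15 for EWS-OCT4 against J1 and 0.62 for OCT4 against J1; the part of that shift in the Esx1 values was not tested.

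Levels of different genes were compared per kilobase of the longest annotated coding transcript. In the EWS-OCT4 line Tfap2c (34.7 CPM per kilobase) and Tead4 (12.0) led, and the other 8 stood between 0.271 and 2.03. The mean level in OCT4 cells ran from 72.2 CPM per kilobase for Tfap2c, 47.2 for Esx1 and 41.1 for Hand1 through 10.5 for Tead4, 6.15 for Gata3, 4.86 for Gata2, 3.52 for Cdx2 and 3.38 for Eomes to 0.802 for Tfap2a and 0.165 for Elf5. In J1 the order was led by Tfap2c (30.5), Esx1 (10.3) and Tead4 (3.72), and Cdx2 was lowest at 0.0257. Transcript lengths were from GENCODE M21, and which transcripts the cells use was not measured.

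Other genes of the trophoblast pathway were read from 3 lists that do not contain the 10 factors. The shares of all genes to read these counts against are 31.9% higher and 34.6% lower for EWS-OCT4 against OCT4, 30.3% and 31.6% for EWS-OCT4 against J1, and 34.3% and 32.7% for OCT4 against J1. Among 18 tested genes of Hippo and Notch signalling, which act upstream of Cdx2 in the embryo, EWS-OCT4 cells had 4 higher and 10 lower than OCT4 cells (22.2% and 55.6%; median log2 fold change -0.32). Against J1, 10 were higher and 3 lower in EWS-OCT4 cells (55.6% and 16.7%; median 0.49), and 15 were higher and 2 lower in OCT4 cells (83.3% and 11.1%; median 0.73). Lats2, a kinase that inhibits YAP and is itself a YAP target, stood at 28.4 ± 0.744 CPM in EWS-OCT4 cells, 15.4 ± 0.406 in OCT4 cells and 1.89 ± 0.397 in J1. Ccn2, a secreted matrix protein and widely used YAP target, was 9.07-fold higher than J1 in EWS-OCT4 cells and 2.68-fold higher in OCT4 cells, and Amotl2, an angiomotin that binds YAP, was 8.21-fold higher than J1 in OCT4 cells. Hes1, a Notch target, stood at 18.3 ± 1.23 CPM in EWS-OCT4 cells, 43.3 ± 3.04 in OCT4 cells and 17.3 ± 1.71 in J1. It was higher in OCT4 cells than in both other groups, and EWS-OCT4 against J1 was not called (edgeR adjusted p = 0.471). Tead2 stood at 37.3 ± 1.55 CPM in EWS-OCT4 cells, lower than the 74.9 ± 1.51 in OCT4 cells. The calls described so far for Lats2, Ccn2, Amotl2, Hes1 and Tead2 had edgeR adjusted p of at most 2.35e-07 (Lats2, EWS-OCT4 against OCT4 cells), with no overlap between the groups compared. Other genes of the list were lower than J1. Amot, another angiomotin, had log2 fold changes against J1 of -1.14 in EWS-OCT4 and -0.73 in OCT4 cells (edgeR adjusted p = 4.22e-09 and 4.62e-07). Tead2 was at -0.61 against J1 in EWS-OCT4 cells and Nf2 at -0.34 in OCT4 cells (edgeR adjusted p = 7.08e-06 and 0.000449).

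Of 25 tested markers of trophectoderm and trophoblast stem cells, EWS-OCT4 cells had 5 higher and 16 lower than OCT4 cells, or 20% and 64% beside 31.9% and 34.6% of all genes (median log2 fold change -0.54, 2 of the 25 X-linked). Against J1, 13 were higher and 7 lower in EWS-OCT4 cells (52% and 28%, beside 30.3% and 31.6% of all genes; median 0.68), so the share of lower genes was near that of all genes. In OCT4 cells 17 were higher and 6 lower than in J1 (68% and 24%, beside 34.3% and 32.7%; median 1.21). The 25 include Sox2 and Esrrb, read above as ES cell markers. Both are among the 6, and Esrrb is among the 5 higher in EWS-OCT4 than OCT4 cells. The 17 include Dppa1, with 0 counts in every J1 library and 38, 40 and 67 in the OCT4 libraries. It passed the filter only through OCT4 cells, so it had to be higher there than in the other groups. Wnt7b, a Wnt ligand of the placenta, had 4.38, 5.67 and 4.55 CPM in the EWS-OCT4 libraries against 28.7, 30.5 and 31.3 in the OCT4 libraries, and Rhox9, an X-linked homeobox gene, 7.79, 5.89 and 7.03 in the EWS-OCT4 against 39.1, 45.0 and 46.8 in the OCT4 libraries. Both were lower in EWS-OCT4 cells, by 6.19-fold and 6.33-fold. Sox21, a SOX factor of the early embryo, went the other way, with 76.5 ± 3.06 CPM in EWS-OCT4 cells, 22.7 ± 2.20 in OCT4 cells and 2.46 ± 0.354 in J1, and Id2, an inhibitor of helix-loop-helix factors, was 2.41-fold higher in EWS-OCT4 cells than in OCT4 cells. Tspan8, a cell surface tetraspanin, was 2.24-fold lower in EWS-OCT4 cells and 11.2-fold lower in OCT4 cells than in J1. The calls named for Wnt7b, Rhox9, Sox21, Id2 and Tspan8 had edgeR adjusted p of at most 0.000144, without overlap. Fgfr2, the receptor for the FGF that sustains trophoblast stem cells, was chosen after its values were seen and had 12.9 ± 0.467 CPM in EWS-OCT4 cells, 47.4 ± 0.207 in OCT4 cells and 7.68 ± 0.817 in J1.

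Of 28 genes of differentiated trophoblast, 19 were tested. In the EWS-OCT4 line 3 were higher and 10 lower than in OCT4 cells, or 15.8% and 52.6% beside 31.9% and 34.6% of all genes (median log2 fold change -0.52, 4 of the 19 X-linked). Against J1, 5 were higher and 7 lower in EWS-OCT4 cells (median -0.20), and these 26.3% and 36.8% were near the 30.3% and 31.6% of all genes. In OCT4 cells 12 were higher and 5 lower than in J1 (63.2% and 26.3%, beside 34.3% and 32.7%; median 0.65). Plac1, with 6, 3 and 2 counts in J1, passed the filter only through the stable lines, so it had to be higher than J1 in them. Stra6, with 1, 0 and 1 counts in the EWS-OCT4 libraries, passed only through the other groups, so it had to be lower in EWS-OCT4 cells. The imprinted growth factor gene Igf2 stood at 93.9 ± 7.52 CPM in EWS-OCT4 cells, 532 ± 48.9 in OCT4 cells and 0.881 ± 0.370 in J1, and its neighbour H19, a noncoding RNA, at 20.5 ± 0.585 CPM in EWS-OCT4 cells, 599.7 ± 69.0 in OCT4 cells and 39.9 ± 12.8 in J1. Igf2 was lower in EWS-OCT4 cells than in OCT4 cells and higher than in J1, and H19 was lower than in both (edgeR adjusted p of at most 0.00766). Dlx3, a homeobox factor of the labyrinth that is also on chromosome 11, fell to 2.25 ± 0.233 CPM in EWS-OCT4 cells, against 7.43 ± 1.27 in J1 (edgeR adjusted p = 2.24e-07). In OCT4 cells Dlx3 stood at 10.9 ± 1.79 CPM, above J1 (edgeR adjusted p = 0.00315). Plac8 was 10.6-fold lower in EWS-OCT4 cells and 19.1-fold lower in OCT4 cells than in J1 (edgeR adjusted p = 1.13e-11 and 8.22e-13). Of 8 defining markers of mature trophoblast, Synb, Tpbpa, Prl3d1, Prl3b1 and Prl2c2 had 0 counts in all 9 libraries, and Gcm1, Syna and Ctsq made up the rest, with a summed level of 2.68 to 3.17 CPM in the EWS-OCT4, 2.54 to 3.30 CPM in the OCT4 and 1.41 to 3.19 CPM in the J1 libraries.

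**Figure D3:**
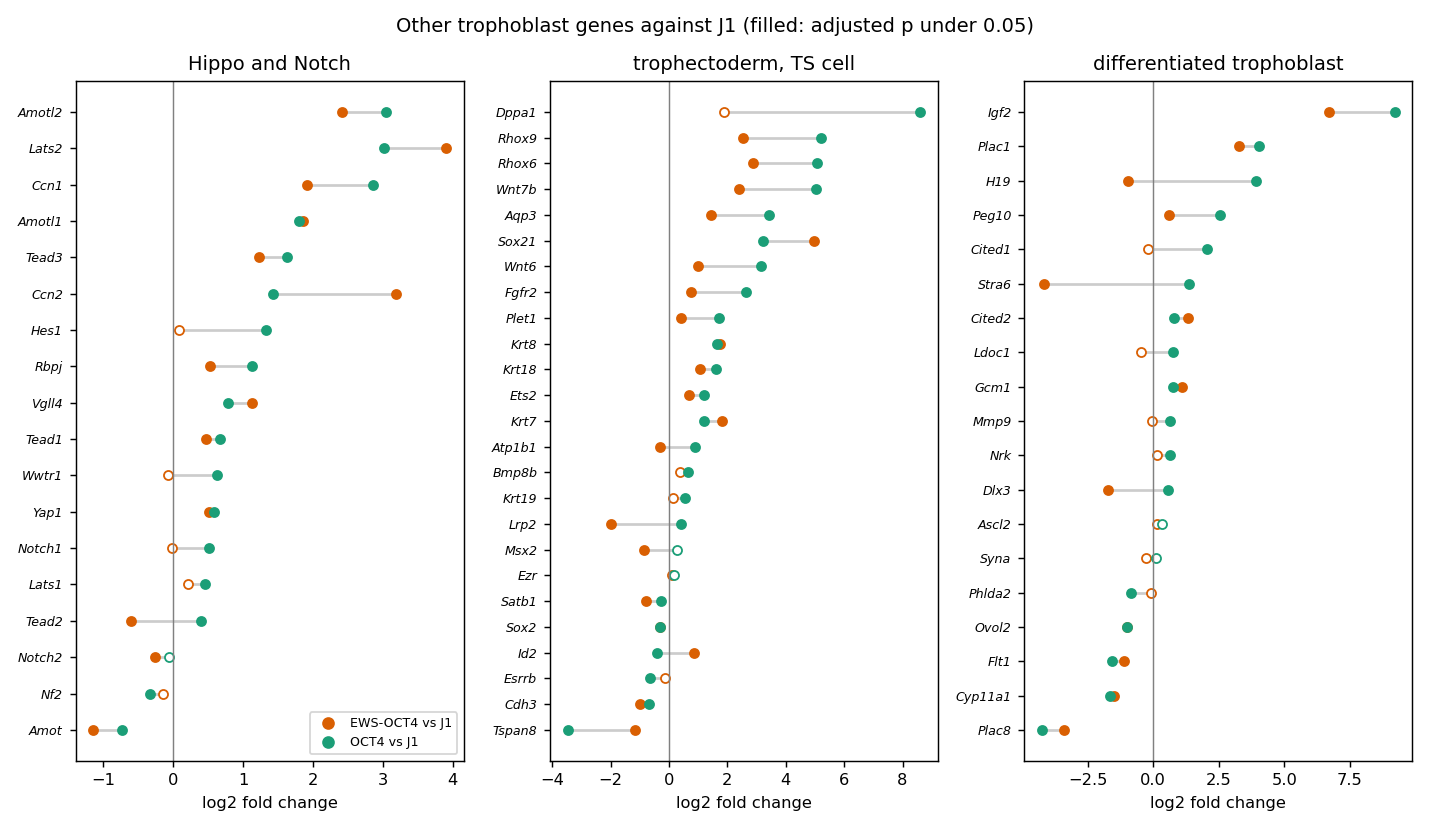
Log2 fold changes against J1 of the tested genes in the 3 further trophoblast lists, 1 row per gene, orange for the EWS-OCT4 line and green for the OCT4 line; filled points have adjusted p under 0.05. Most trophectoderm markers lie to the right of 0, and Tspan8 lies to the left in both lines, at -1.17 and -3.48.

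Several of the 10 factors also serve other lineages, so markers of those were read beside them. Of 9 trophectoderm and trophoblast stem cell markers, the summed level was 242 to 252 CPM in the EWS-OCT4, 323 to 339 CPM in the OCT4 and 168 to 191 CPM in the J1 libraries, with all 9 at 1 CPM or more in EWS-OCT4 cells and J1 and 8 in OCT4 cells. Summed mesoderm markers (T, Mixl1, Mesp1, Tbx6 and Kdr) came to 3.38 to 5.29 CPM in the EWS-OCT4, 4.66 to 5.74 CPM in the OCT4 and 3.62 to 4.27 CPM in the J1 libraries. The 6 primitive endoderm markers (Gata4, Gata6, Sox17, Sox7, Pdgfra and Dab2) summed to 10.3 to 11.5 CPM in the EWS-OCT4, 21.7 to 24.2 CPM in the OCT4 and 25.8 to 31.4 CPM in the J1 libraries. Dab2, at 5.93 ± 0.340 CPM in EWS-OCT4 cells, 5.24 ± 0.463 in OCT4 cells and 17.9 ± 1.65 in J1, made up most of the J1 sum, and Gata6 in this sum and Col4a1, Col4a2 and Sparc in the wider endoderm list were higher in OCT4 cells than in J1, Col4a1 at 313 ± 19.3 CPM against 72.5 ± 0.174. The 5 surface ectoderm and neural crest markers summed to 0.927 to 1.35 CPM in the EWS-OCT4, 1.68 to 1.94 CPM in the OCT4 and 3.25 to 4.43 CPM in the J1 libraries. Sox10, at 2.885 ± 0.500 CPM in J1, made up most of the J1 sum. The wider list of 9 tested genes was mixed against J1, with 3 higher and 4 lower in EWS-OCT4 cells and 3 higher and 5 lower in OCT4 cells. Foxd3 was among the higher in EWS-OCT4 cells and Grhl3 in OCT4 cells, at 89.25 ± 1.18 CPM against 32.8 ± 0.904 in J1. The 5 germ cell markers summed to 47.2 to 52.8 CPM in the EWS-OCT4, 52.3 to 53.9 CPM in the OCT4 and 38.7 to 42.1 CPM in the J1 libraries, and the 6 fibroblast markers (Col1a1, Col1a2, Col3a1, Thy1, Dcn and Lum) to 22.8 to 26.1 CPM in the EWS-OCT4, 34.0 to 40.0 CPM in the OCT4 and 68.5 to 87.5 CPM in the J1 libraries, with Dcn at 0 in the EWS-OCT4, Lum in the OCT4 and both in the J1 libraries. Of the wider fibroblast list, Vim was higher than J1 in both stable lines and Pdgfrb in OCT4 cells: Vim stood at 216 ± 8.20 CPM in EWS-OCT4 cells, 249 ± 13.9 in OCT4 cells and 57.8 ± 2.35 in J1, and the log2 fold change of Pdgfrb against J1 was -1.10 (SE 0.107) in EWS-OCT4 cells and 1.01 (SE 0.0940) in OCT4 cells. Of these sums, the trophectoderm one was highest in OCT4 cells, lower in EWS-OCT4 cells and lowest in J1 without overlap, as Cdx2, Gata2 and Gata3 were. Its members did not all share that order. The means of Krt18, Krt19, Fgfr2, Ets2 and Plet1 did. Krt7 and Krt8 were highest in EWS-OCT4 cells, and Tspan8 and Cdh3 in J1. Cdh3 averaged 37.9 CPM in EWS-OCT4 cells, 46.6 in OCT4 cells and 75.4 in J1. The part of the other cell types in the factors' values was not tested.

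**Figure D4:**
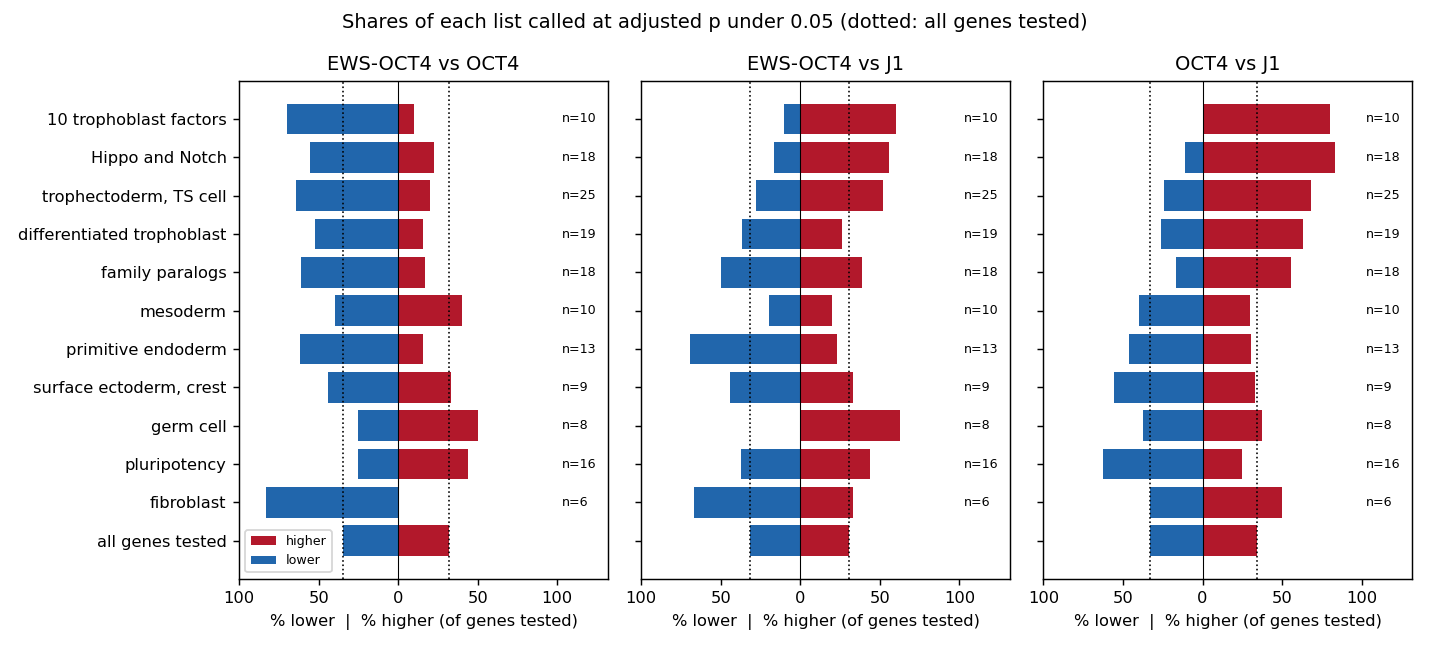
Percentage of each list's tested genes called higher (right, red) or lower (left, blue) in the 3 comparisons at adjusted p under 0.05; dotted lines give the shares over all genes tested, and n is the number tested. The 10 factors are 70% lower and 10% higher for EWS-OCT4 vs OCT4, and 80% higher and 0% lower for OCT4 vs J1. The 80% includes Cdx2 and Gata3, which passed the filter only through the stable lines, and such genes were not left out of the lists either.

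The genes with profiles most like each factor were ranked by the root mean square difference of log2 CPM over the 9 libraries, after centring each gene on its mean and among genes with at least 5 CPM in some group; a smaller value is a closer match. The libraries fall into 3 groups, so this likeness mainly reflects 3 group levels, and it is given as a description. Nearest to Tead4 was Krt8 (0.0799), a keratin of simple epithelia and trophectoderm, at 73.0 ± 1.44 CPM in EWS-OCT4 cells, 67.7 ± 2.13 in OCT4 cells and 21.7 ± 1.44 in J1, followed by Coa8 (0.0984) and Rbms1 (0.107). Nearest to Cdx2 were the X-linked homeobox genes Rhox5 (0.539) and Rhox6 (0.560), then Gm9 (0.622), and nearest to Gata3 were Gm9 (0.479), Rhox9 (0.557) and Gm53498 (0.589). Rhox5 averaged 209.8 CPM in EWS-OCT4 cells, 508 in OCT4 cells and 10.5 in J1. Gata2 was matched most closely by Ptges (0.179), a prostaglandin E synthase, and then by Efhc2 (0.203) and Klhdc7a (0.237).

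Nearest to Hand1 was Tinagl1 (0.340), a matrix protein gene that averaged 3.60 CPM in EWS-OCT4 cells, 104 in OCT4 cells and 1.80 in J1, followed by Gm53476 (0.457) and Vnn1 (0.475). Esx1 was nearest to Dmgdh (0.346) and Rufy4 (0.410), neither of them X-linked. Eomes was nearest to Rnft2 (0.122), Ptpn14 (0.130) and Mpp1 (0.144). Of these, Ptpn14, a phosphatase that binds YAP, averaged 80.7 CPM in EWS-OCT4 cells, 208 in OCT4 cells and 71.7 in J1. Tfap2c was nearest to Cndp2 (0.0548), Katnal1 (0.0607) and Idh2 (0.0650), and Tfap2a to Fip1l1 (0.0817), Ik (0.0924) and Ythdc1 (0.0993), among very many genes of small change. For Elf5, whose counts are low, Gm19705 (0.364), Gm11007 (0.376) and Gm10069 (0.397) were the nearest.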

How the data were processed

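Total RNA libraries were prepared with the CORALL V2 kit, per the labels' protocols, and the authors deposited 1 table of whole-number counts per gene symbol for each of the 9 libraries, without normalization. The submitters' processing notes list build GRCm39 and the tools GATK, STAR, Salmon and fastp; annotation, strand setting and treatment of molecular identifiers: not given in the sources used here. Groups and replicate numbers were read from the labels. Genes were kept by filterByExpr (minimum count 10, minimum total 15) and tested in 1 fit of all 9 libraries and 3 groups with edgeR 4.0.16 (R 4.3.3), TMM factors, robust glmQLFit and glmQLFTest, Benjamini-Hochberg over 16562 genes, threshold 0.05; the code was tested on simulated data. SE is |log2 fold change| over root F. Log2 CPM used a prior count of 2. The members, gene lists and tests were chosen with earlier results of these data known. Named list genes were up to 2 per direction, list and comparison, called, without overlap and at 5 CPM or more; the 3 nearest genes per factor were also named, except 1 that is not reported here. Annotation was GENCODE M21 (15065 tested genes matched). Alternatives used limma 3.58.1 and DESeq2 1.42.0 among others.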

Additional observations from a re-analysis of the deposited data

Results flagged for a closer look

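Esx1 stood out because the 2 stable lines moved to opposite sides of J1 and the difference between them passed the edgeR quasi-likelihood test (log2 -4.53, SE 0.160, adjusted p = 5.07e-12; all 3 EWS-OCT4 libraries below and all 3 OCT4 libraries above all 3 J1 libraries). It was the only one of the 10 factors with a call in opposite directions against J1. Its log2 fold change was -2.34 for the EWS-OCT4 line and 2.19 for the OCT4 line. Genes outside the 10 were also called in opposite directions against J1, among them Dlx3 (-1.71 and 0.56), H19 (-0.96 and 3.91) and Elf3 (-0.83 and 1.56). The share of all genes that did so was not counted.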

How the results depend on the processing

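The alternatives were RLE and upper-quartile factors, testing without a low-count filter, requiring 1 CPM in 3 libraries, DESeq2, limma-voom, only the 6 libraries compared, the replicate block and each library left out, and, chosen after seeing the data, removal of the 13 mitochondrial genes with Gm26917 and TMM factors from autosomes without 8 and 11. Across them no fold change of the 10 factors changed sign, 549 factor values stayed on the same side of the threshold, 16 lost a call (Tead4, Elf5 and Tfap2c, given above) and 1 gained one (Tfap2a). The count of factors higher in EWS-OCT4 than OCT4 was 1, and 0 with upper-quartile factors and with the autosomal factors; over the libraries left out it ran from 0 to 1, all through Tead4. Other counts of calls stayed within 1.5 times. Elf5 was not tested with the minimum of 1 CPM, nor for OCT4 against J1 with only the 6 libraries compared. The replicate block changed no call of the factors: 7 were lower and 1 higher between the stable lines with 5419 genes higher and 5827 lower; deviations of same-numbered libraries correlated between -3.17e-05 and 0.0737, so the numbers were not taken as pairs. Upper-quartile and RLE scaling shifted the median of all genes by under 0.1 (log2). On raw totals Tfap2c averaged 99.9 CPM in EWS-OCT4 cells, more than 1 SD from the scaled value. Counts of 4 for Cdx2 and 13 for Gata3 over J1 limit the size of their ratios to J1.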

Other observations

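Paralogs of the 10 factors, from the CDX, GATA, HAND, AP-2, TEAD, ELF and T-box families, were read as a further list. Of 18 tested, EWS-OCT4 cells had 3 higher and 11 lower than OCT4 cells (16.7% and 61.1%, beside 31.9% and 34.6% of all genes; median log2 fold change -0.43). Against J1, 7 were higher and 9 lower in EWS-OCT4 cells (38.9% and 50%, beside 30.3% and 31.6%; median -0.34). In OCT4 cells 10 were higher and 3 lower than in J1 (55.6% and 16.7%, beside 34.3% and 32.7%; median 0.62). Gata6, a primitive endoderm factor, had 0.673, 0.346 and 0.126 CPM in the EWS-OCT4 libraries, 9.74, 9.53 and 8.74 in the OCT4 libraries and 2.45, 0.958 and 1.88 in J1, and Gata1, an X-linked blood factor, had 1.25, 0.649 and 0.842 CPM in the EWS-OCT4, 9.37, 6.96 and 8.32 in the OCT4 and 3.05, 2.51 and 2.73 in the J1 libraries. Both were lower in EWS-OCT4 cells and higher in OCT4 cells than in J1, as Esx1 was, with log2 fold changes of -2.23 and 2.40 for Gata6 and -1.61 and 1.57 for Gata1 (edgeR adjusted p of at most 0.000289). Gata6 had 14, 8 and 3 counts in the EWS-OCT4 libraries and passed the filter through the other groups. Its lower call in EWS-OCT4 cells is therefore not independent of the filter. Elf3, an epithelial ETS factor, averaged 34.8 ± 0.462 CPM in EWS-OCT4 cells, 183 ± 3.76 in OCT4 cells and 62.0 ± 4.92 in J1. Elf1, a paralog expressed in blood, was 2.24-fold higher in EWS-OCT4 cells than in OCT4 cells. At 11.8 CPM in EWS-OCT4 cells, 5.27 in OCT4 cells and 15.1 in J1, it was lower than J1 in both (edgeR adjusted p = 0.00571 and 1.34e-09). Tead3 was 2.33-fold higher in EWS-OCT4 cells and 3.08-fold higher in OCT4 cells than in J1, with edgeR adjusted p of at most 3.87e-05. Hand2 had 2 counts over the EWS-OCT4, 5 over the OCT4 and 1 over the J1 libraries and was not tested.

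The lists of other lineages are to be read against 31.9% of all genes higher and 34.6% lower for EWS-OCT4 against OCT4, 30.3% and 31.6% for EWS-OCT4 against J1, and 34.3% and 32.7% for OCT4 against J1. Genes that passed the low-count filter only through some of the groups were not left out of these counts or those of the paralogs. The 13 tested primitive endoderm genes had 2 higher and 8 lower in EWS-OCT4 than OCT4 cells, 3 and 9 in EWS-OCT4 cells against J1, and 4 and 6 in OCT4 cells against J1. The 8 germ cell genes had 4 higher and 2 lower, 5 and 0, and 3 and 3 in the same comparisons, the 16 pluripotency genes 7 and 4, 7 and 6, and 4 and 10, and the 10 mesoderm genes 4 and 4, 2 and 2, and 3 and 4. The 9 surface ectoderm and neural crest genes had 3 and 4, 3 and 4, and 3 and 5, and the 6 fibroblast genes 0 and 5, 2 and 4, and 3 and 2. Several of these shares were near those of all genes, such as the 33.3% of surface ectoderm genes higher for EWS-OCT4 against OCT4 and the 30% of mesoderm genes higher for OCT4 against J1. Prdm1, a repressor needed by germ cells, was 3.53-fold higher in EWS-OCT4 than OCT4 cells, and the matrix gene Col4a1 was 12.2-fold lower (edgeR adjusted p = 4.75e-10 and 4.46e-16). Members of the same lists went the other way: Dazl was 2.56-fold lower and Lama1 3.89-fold higher (edgeR adjusted p = 3.33e-07 and 1.07e-13). Prdm1 averaged 12.0 CPM in EWS-OCT4 cells, 3.41 in OCT4 cells and 10.4 in J1, and Dazl 8.39, 21.5 and 8.17 in that order.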
